A study of Mus musculus and Mus spretus with 72 samples.

Results

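Nsmce1, Ccdc82, Dscaml1, Hmga2 and Pigc are 5 genes of the 14386 that the arrays name. They were chosen by measured values: the log ratios of brain, in which their probes gave large differences between Mus musculus domesticus and M. m. musculus. Every probe named for 1 of these genes alone was taken, 6 of 22089 probes in all: 1 probe each for Nsmce1, Ccdc82, Hmga2 and Pigc, and 2 for Dscaml1 (array elements 20837 and 28502, called the first and the second Dscaml1 probe). The values that chose the genes are given below as a description, without a test, and the members are tested only on arrays that the choice did not use.

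The study asked how far gene expression has diverged among house mice and their relatives. On each of 72 two-channel arrays the RNA of a single male was hybridised with RNA pooled from 9 animals of the laboratory strain C57BL6, taken from the matching organ (brain, liver/kidney or testis). No group was treated according to the labels. The groups dom, mus and ssp had 6 arrays per organ: dom is Mus musculus domesticus, mus is Mus musculus musculus, and ssp is a Mus musculus whose sub-species the labels leave unnamed. The groups cas (Mus musculus castaneus) and spretus (the separate species Mus spretus) had 3 arrays per organ. All mice were about 12 weeks old, so every value rests on 3 to 6 animals and on 1 reference pool per tissue. The labels do not say where the animals came from, whether they were wild-caught or bred, or how liver and kidney were combined. One array of brain, mus 08, is called mus in its title and domesticus in its channel label, and it was kept as mus and left out as an alternative.

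The 5 genes belong to unrelated cell functions. Nsmce1 encodes a RING-finger subunit of the SMC5/6 complex, a relative of cohesin and condensin that works in DNA repair and chromosome maintenance. Pigc encodes a subunit of the enzyme that takes the first step in making GPI anchors, the glycolipids that fix many proteins to the outer face of the cell membrane. Dscaml1 encodes an immunoglobulin-type adhesion molecule of neurons, known for its part in the spacing and wiring of cells in the retina. Hmga2 encodes an AT-hook chromatin protein that is high in embryonic tissue and low in most adult tissue, and it is known for its effect on body size in mice and as a target of let-7 microRNAs. Ccdc82 encodes a coiled-coil protein whose function is little described.

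Values are log2 ratios of a mouse over its C57BL6 pool, after the 2 spots of a probe were averaged and each array was centred on its median. A value of 0 is the level of the pool. No source used here states the base or the direction of the deposited ratios. They were read as log2 of the mouse channel over the pool channel, and every sign below would turn if the opposite held. The ratios compare a probe's signal between 2 samples, so fewer cells of a type and less RNA per cell cannot be told apart, and neither can RNA level and sequence differences under the probe.

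Hmga2 and Nsmce1 are the genes on which most of the tests below turn, so the 250 bases before their annotated starts are shown, from RefSeq on build GRCm38.p6. In Hmga2 (chr10:120476470-120476719, minus strand) capitals mark runs of CTCTCT, searched on both strands as CTCTCT or AGAGAG with overlapping matches counted. In Nsmce1 (chr7:125491444-125491693, minus strand) capitals mark GC boxes, GGGCGG or its reverse complement CCGCCC.
Hmga2: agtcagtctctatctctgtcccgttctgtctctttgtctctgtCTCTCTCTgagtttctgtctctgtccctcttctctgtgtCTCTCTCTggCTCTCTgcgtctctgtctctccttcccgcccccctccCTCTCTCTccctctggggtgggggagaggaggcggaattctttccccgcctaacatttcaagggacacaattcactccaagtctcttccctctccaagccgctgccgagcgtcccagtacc
Nsmce1: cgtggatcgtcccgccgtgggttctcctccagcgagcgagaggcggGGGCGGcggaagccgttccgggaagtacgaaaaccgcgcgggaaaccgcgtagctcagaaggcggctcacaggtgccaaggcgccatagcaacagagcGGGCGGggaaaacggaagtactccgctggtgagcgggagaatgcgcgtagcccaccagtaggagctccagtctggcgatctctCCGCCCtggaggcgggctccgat
The Hmga2 window held 7 matches to the CT run, which 23.4% of 32851 windows of the same length hold at least once. Its share of C and T was 70.8%, and 99.6% of windows had a lower share. The Nsmce1 window held 3 GC boxes, a motif that 32.7% of windows hold. RefSeq lists a second start of Nsmce1, whose window (chr7:125487960-125488209, minus strand) held 0 GC boxes and 1 CT run. A window of the same kind was held for Ccdc82 and Pigc too, with 6 and 1 GC boxes. No source used here states the build for which the array probes were designed, and the array values bear on the transcript, not on these windows.

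Arrays fell into sets by which spots had no value. One set held 46 arrays and the other 23, and 3 arrays matched neither (cas 03 of brain, spretus 02 of liver/kidney and dom 01 of testis). In brain the 6 dom arrays were in the first set with 4 of the 6 mus arrays, while mus 05 and mus 07, 3 ssp arrays, 2 cas arrays and all 3 spretus arrays were in the second. In liver/kidney all dom, mus and ssp arrays were in the first set and no cas or spretus array was, so there those groups and the sets cannot be told apart.

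In brain, Nsmce1 and Ccdc82 were higher in mus than in dom, and Dscaml1, Hmga2 and Pigc were lower (values that chose the genes). Over all probes, 46 of 20621 (0.223%) had an adjusted p under 0.05 for this contrast in limma, 32 higher in mus (0.155%) and 14 lower (0.0679%), and the 5 selected probes were among them because they were picked for it. Nothing is read from that count. Among the 46, Nsmce1 ranked 2nd and Ccdc82 5th by the size of the rise, and Dscaml1, Hmga2 and Pigc ranked 1st, 2nd and 4th by the size of the fall. Of named genes, those just outside the threshold were Phf2 at a difference of 0.42 ± 0.09 (SE) and Dus2 at -0.59 ± 0.13. Those just inside it were Ppp1r11 at 0.40 ± 0.09 and 1700063D05Rik at 0.59 ± 0.13, and of the members Hmga2 lay nearest to it.

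Nsmce1 in brain read -0.26, 0.04, 0.01, 0.08, -0.23 and -0.30 in the dom arrays. It read 0.55, 0.51, 0.90, 0.47, 0.74 and 0.33 in the mus arrays. All mus arrays lay above all dom arrays, a pattern that 187 of 20621 probes (0.907%) shared, and the difference was 0.69 ± 0.13, or 1.62-fold. The 3 cas arrays were spread across both groups, at 0.79, 0.17 and -0.19. The ssp arrays read from -0.24 to 0.41 with a mean of 0.04 ± 0.23 (SD, n = 6), and the spretus arrays read -0.22, -0.36 and -0.47. Group means ran mus, cas, ssp, dom and spretus from high to low, and 5 of 6 ssp arrays and all 3 spretus arrays lay below every mus array. Here and below, the share of all probes that set cas, ssp or spretus apart in this way was not counted, so nothing is read from it.

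Ccdc82 in brain was below the pool in all 6 dom arrays, from -0.77 to -0.05 with a median of -0.23. It was above the pool in all 6 mus arrays, from 0.07 to 0.69 with a median of 0.29. The groups did not overlap, as for 187 of 20621 probes with mus higher (0.907%), and the difference was 0.65 ± 0.12, or 1.57-fold. The other groups lay between them, with means of 0.01 ± 0.19 in cas (SD, n = 3), 0.06 ± 0.15 in ssp (n = 6) and -0.13 ± 0.17 in spretus (n = 3). Of the ssp arrays 5 were above every dom array and 5 were below every mus array.

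The first Dscaml1 probe in brain read 0.09, 0.42, 2.23, 1.22, 1.65 and 1.87 in the dom arrays (01, 03, 05, 06, 10 and 13). The mus arrays read 0.16, 0.07, 0.04, -0.04, -0.07 and -0.21, and the 12 arrays of cas, ssp and spretus lay between -0.34 and 0.19. High values were thus confined to 4 dom arrays at 1.22 and above, while dom 01 lay among the mus arrays and dom 03 at 0.42 was above them. The difference of mus from dom was -1.25 ± 0.23, or 2.39-fold, and the SD among dom arrays was 0.84, against 0.13 among mus arrays. The 2 spots of the probe, centred on the array median, read 1.68 and 2.78 on dom 05 and 0.50 and 1.94 on dom 06. They read 1.70 and 1.61 on dom 10 and 1.91 and 1.83 on dom 13.

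The second Dscaml1 probe did not show that pattern. It had a value on 49 of the 72 arrays and none on 23. Those 23 were the arrays of the second array set, and the sets were themselves drawn from spots without a value. In brain the 6 dom arrays read from -0.09 to 0.11 and the 4 mus arrays with a value from -0.16 to 0.08, so the groups overlapped at a difference of -0.05. On dom 05, where the first probe read 2.23, the second read 0.11. Its 2 spots correlated at r = 0.01 over the 47 arrays that had both, against 0.79 over 68 arrays for the first probe. Too few arrays of cas and spretus had a value for the second probe to enter the fits on all groups. In a fit on dom and mus alone, added after the values were seen, it was 0.02 ± 0.07 in liver/kidney (limma, adjusted p = 0.952; 1.16% of probes called). In testis it was 0.13 ± 0.16 (limma, adjusted p = 0.852; 0 of 21646 probes called, 1437 at an unadjusted p under 0.05), and -0.09 ± 0.08 without mus 03.

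**Figure D1:**
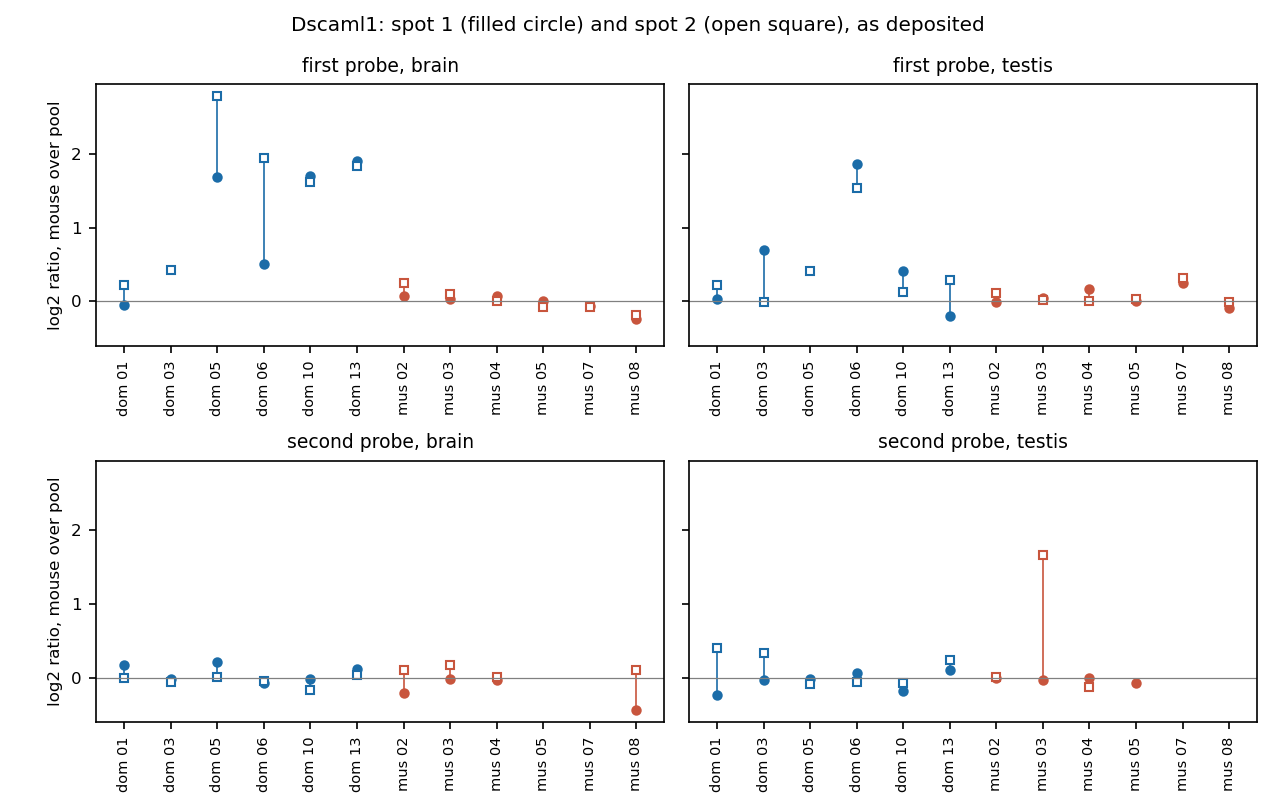
Log2 ratio of the mouse over the pool for both spots of each Dscaml1 probe on the dom and mus arrays of brain and testis. Values are centred on the array median, although the heading of the figure calls them as deposited. A line joins the 2 spots of an array, circles are spot 1 and squares spot 2. For the first probe, 4 dom arrays of brain and dom 06 of testis stand high, and the second probe stays near 0 except for 1 spot of mus 03 in testis, which read 1.67.

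Hmga2 in brain read 0.88, -0.59, -0.28, -0.49, -0.47 and -0.29 in the dom arrays. The mus arrays read -0.65, -1.02, -1.11, -1.28, -0.81 and -1.09. All mus arrays lay below all dom arrays, as for 99 of 20621 probes (0.48%), and the difference was -0.78 ± 0.17, or 1.72-fold. Array dom 01 stood apart from the other dom arrays, and without it the dom mean was -0.42 ± 0.14 (SD, n = 5) and the difference -0.57. The ssp arrays resembled the mus arrays, from -1.05 to -0.61 and all below every dom array. The cas arrays read -0.60, -0.59 and -0.53 and the spretus arrays -0.35, -0.29 and -0.46, all 6 above every mus array.

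Pigc in brain was above the pool in all 6 dom arrays, from 0.01 to 0.75 with a median of 0.32. It lay between -0.58 and 0.13 in the mus arrays, where mus 05 at 0.13 overlapped the dom range. The difference was -0.63 ± 0.13, or 1.55-fold. The ssp mean was 0.04 ± 0.10 (SD, n = 6), the spretus arrays read 0.25, 0.23 and 0.23, and the cas arrays read -0.39, 0.12 and 0.37. All 3 spretus arrays lay within the dom range and above every mus array.

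**Figure D2:**
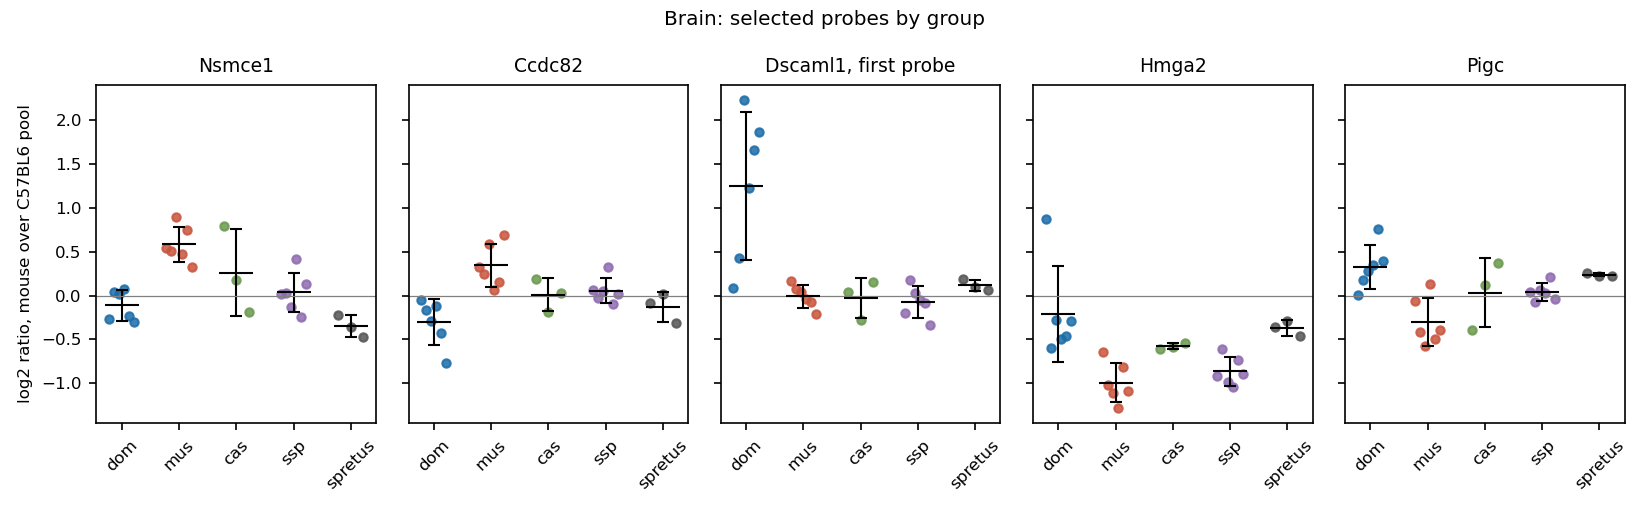
Brain log2 ratio of each mouse over the C57BL6 pool for the 5 selected probes; 1 point per array, with bars at the group mean ± SD (6 arrays in dom, mus and ssp, 3 in cas and spretus). The mus points lie above the dom points for Nsmce1 and Ccdc82 and below them for Hmga2, while Dscaml1 is high in 4 of 6 dom arrays only.

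With the 4 mus and 6 dom arrays of the first set alone, the brain differences were 0.68 for Nsmce1, 0.77 for Ccdc82, -1.23 for the first Dscaml1 probe, -0.76 for Hmga2 and -0.69 for Pigc. Leaving out mus 08, whose labels conflict, gave -0.77 for Hmga2 and -1.21 for the first Dscaml1 probe. Were mus 08 a dom animal, as its channel label says, mus and dom would overlap for Ccdc82 and Hmga2, where it read 0.69 and -1.09. For Nsmce1 it read 0.33, below the other mus arrays, and the groups would stay apart.

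The choice of genes used the dom and mus arrays, so differences among cas, ssp and spretus in brain were tested in a fit on their 12 arrays alone. None of the 5 selected probes had an adjusted p under 0.05. In that fit 89 of 21156 probes (0.421%) were called for spretus against ssp, 8 (0.0378%) for spretus against cas and 0 for ssp against cas, where limma gave 2342 probes an unadjusted p under 0.05. Hmga2 came nearest, at 0.50 ± 0.10 higher in spretus than in ssp (limma, adjusted p = 0.0586), and it was 0.52 among the 3 ssp and 3 spretus arrays of the second set. It passed the threshold with array weights (adjusted p = 0.00438), with the array set as a term (adjusted p = 0.0496), without ssp 02 (adjusted p = 0.0483) and without cas 03 (adjusted p = 0.0423). Of 12 fits that left out 1 array, 10 did not call it (limma, adjusted p up to 0.226). In the fit on all groups of brain the same difference had an SE of 0.20 and was not called (limma, adjusted p = 0.139). Nsmce1 was -0.61 ± 0.21 in spretus against cas (limma, adjusted p = 0.358), a comparison in which the cas arrays themselves read from -0.19 to 0.79.

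Hmga2 was lower in mus than in dom in liver/kidney as well, where the choice of genes had used no array. The dom arrays read -0.39, -0.79, -0.60, -0.58, -0.53 and -0.64. The mus arrays read -1.21, -1.87, -1.25, -1.64, -1.55 and -1.61, and no mus array reached the dom range. The difference was -0.94 ± 0.15, or 1.91-fold (limma, adjusted p = 0.00174), and it held when any 1 array was left out, with adjusted p from 0.000161 to 0.00723. With the title numbers as a replicate block it was -0.85 and not called (adjusted p = 0.477). Over all probes 122 of 20652 (0.591%) were called in this contrast, 22 of them lower in mus (0.107%), and Hmga2 was the only member called. The 12 arrays compared here belonged to the same array set. If the title numbers mark the same animals, the liver/kidney and testis arrays come from the mice whose brains chose the genes. The arrays are then new but the animals are not, so they are no independent sample of the groups. Markers of the organs that were combined were not called between the groups: the mean over 8 hepatocyte probes ran from 0.13 to 0.43 in dom and from 0.06 to 0.36 in mus, and that over 7 kidney tubule probes from -0.42 to -0.23 and from -0.29 to -0.18. The part of these in the Hmga2 difference was not tested.

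Among the other groups of liver/kidney, ssp stood beside mus for Hmga2. Its 6 arrays read from -1.87 to -1.44 with a mean of -1.67 ± 0.18 (SD), all below every dom array, and it was -0.61 ± 0.13 against the mean of dom and mus (limma, adjusted p = 0.0347; 0.484% of probes were called). That call was lost without dom 01, 06 or 13, mus 02 or 04, or ssp 02, 04, 05 or 06 (9 of 24 fits that left out 1 array each, adjusted p up to 0.0839), with the first spots alone (adjusted p = 0.0568), with the replicate block of the title numbers (-0.62, adjusted p = 0.211), and with quantile normalisation, where the difference was -0.31 (adjusted p = 0.319). Set against dom alone, a comparison added after the values were seen, ssp was -1.08 ± 0.15 (limma, adjusted p = 0.00118; 0.291% of probes called), and this was called in each of 12 fits that left out 1 ssp or dom array. The cas arrays read -1.02, -1.80 and -1.48 and were -0.85 ± 0.18 against dom (limma, adjusted p = 0.0298; 0.692% of probes called). That call was lost without cas 02 (-0.66, adjusted p = 0.117), cas 03, dom 01, dom 06 or dom 13. Against the mean of dom and mus, cas was -0.38 ± 0.16 (limma, adjusted p = 0.284), and -0.02 with quantile normalisation (adjusted p = 0.983). The spretus arrays read -1.31, -1.44 and -0.48, and the difference of spretus from dom, -0.49 ± 0.18, was not called (limma, adjusted p = 0.126; 5.32% of probes called) but was -0.79 without spretus 03 (adjusted p = 0.00867). Of 9 fits that left out 1 spretus or dom array, only that 1 was called. The comparisons of cas, ssp and spretus with dom alone, here and in testis, were varied only by leaving out 1 array. They were not run under another normalisation.

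In testis, Hmga2 read -0.30, 0.07, -0.13, 0.43, -0.03 and -0.46 in dom. It read -1.11, -0.65, -1.18, -0.48, -0.68 and -0.78 in mus. Again no mus array reached the dom range, though mus 05 at -0.48 lay next to dom 13 at -0.46. The difference was -0.74 ± 0.14, or 1.67-fold, and Hmga2 had the smallest unadjusted p of the 20754 probes tested (3.39e-05), but its adjusted p in limma was 0.406 and no probe was called in this contrast, where 1367 had an unadjusted p under 0.05. Without dom 13 it was -0.82 with an adjusted p of 0.0464, and in no other alternative was it called. No marker of spermatids, spermatocytes or Sertoli and Leydig cells was called between mus and dom in testis. The cas arrays read -0.34, -0.67 and -0.62, the ssp arrays from -1.10 to -0.27 and the spretus arrays -0.81, -0.59 and -0.81. Set against dom, cas was -0.47 ± 0.18 (limma, adjusted p = 0.454; 0.0289% of probes called) and ssp was -0.57 ± 0.14 (limma, adjusted p = 0.299; none called, 1722 at an unadjusted p under 0.05). Against dom, spretus was -0.67 ± 0.18 (limma, adjusted p = 0.0184; 9.25% of probes called), and it was not called without spretus 01 or without spretus 03 (adjusted p = 0.0557 and 0.0610). The spretus arrays of testis were all in the second array set and the dom arrays were not, so group and set cannot be told apart in that comparison.

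Of 20617 probes tested in both liver/kidney and testis, Hmga2 alone (0.00485%) had every mus array below every dom array in the one tissue and again in the other, and no probe had every mus array above every dom array in both. In liver/kidney alone that pattern held for 99 of 20652 probes (0.479%), and in testis for 40 of 20754 (0.193%). Hmga2 was also below the pool on 69 of the 72 arrays, the exceptions being dom 01 of brain and dom 03 and dom 06 of testis. The dom mean was -0.07 for testis, -0.21 for brain and -0.59 for liver/kidney, and each of those is relative to another pool, so levels cannot be compared across tissues. The test of whether the mus and dom difference was unlike in liver/kidney and testis made no call, at -0.19 ± 0.24 over the animals that the titles number alike (limma, adjusted p = 0.925). Brain was not tested against the other tissues, since its arrays chose the genes. The 2 spots of the Hmga2 probe correlated at r = 0.99 over 72 arrays.

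**Figure D3:**
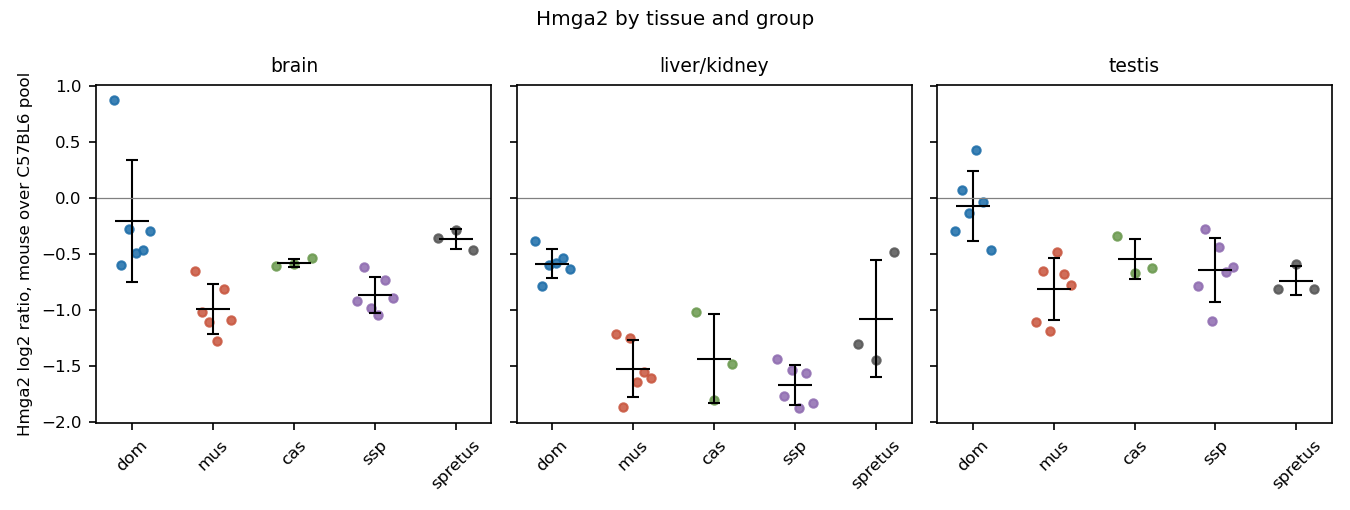
Hmga2 log2 ratio of each mouse over the C57BL6 pool of its tissue, by group, with 1 point per array and bars at the mean ± SD. In each tissue the 6 mus points lie below the 6 dom points. The ssp points lie within or near the mus range in brain and liver/kidney. In testis 2 of the 6 ssp points lie above every mus point and within the dom range. Spretus varies most in liver/kidney, from -1.44 to -0.48.

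None of the other 4 genes was called between mus and dom in liver/kidney. Nsmce1 read from 0.00 to 0.23 in dom and from -0.15 to 0.25 in mus, a difference of -0.10 ± 0.09 (limma, adjusted p = 0.998). Ccdc82 differed by 0.04 ± 0.11, the first Dscaml1 probe by -0.02 ± 0.09 and Pigc by -0.18 ± 0.15, with adjusted p of 0.985 or more in limma, and the groups overlapped for each. The second Dscaml1 probe read from -0.05 to 0.11 in dom and from -0.20 to 0.25 in mus. Nsmce1 was lowest in ssp, from -0.50 to 0.04, where it was -0.30 ± 0.08 against the mean of dom and mus (limma, adjusted p = 0.0828). That value passed the threshold with quantile normalisation (-0.35, adjusted p = 0.0458), with array weights (adjusted p = 0.0182), with the spread taken from the compared groups (adjusted p = 0.0377), without ssp 03 (-0.36, adjusted p = 0.0273) and without spretus 03 (adjusted p = 0.0414). Of 24 fits that left out 1 array, 22 did not call it (limma, adjusted p up to 0.202).

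In testis none of the 4 was called either. Nsmce1 kept the brain direction at 0.29 ± 0.18 (limma, adjusted p = 0.799), with dom arrays from -0.96 to 0.03 and mus arrays from -0.52 to 0.24. The first Dscaml1 probe was again lower in mus, by -0.41 ± 0.18 (limma, adjusted p = 0.746), but this rested on dom 06 at 1.70, whose spots read 1.86 and 1.54, while the other 5 dom arrays read from 0.04 to 0.41. Without dom 06 the difference of the means was -0.17. If the numbers in the titles mark the same animals, dom 06 was high in both tissues, at 1.22 in brain, while dom 05, dom 10 and dom 13 read 2.23, 1.65 and 1.87 in brain and 0.41, 0.27 and 0.04 in testis. Ccdc82 was below the pool in 23 of 24 testis arrays, with means of -0.41 ± 0.12 in dom and -0.38 ± 0.26 in mus (SD, n = 6 each), and differed by 0.02 ± 0.17 between them (limma, adjusted p = 0.991). Pigc was above the pool in 18 of 24 testis arrays and all 6 ssp arrays, and differed by -0.10 ± 0.15 between mus and dom (limma, adjusted p = 0.931). Its 2 spots read -1.28 and 1.01 on dom 03 of testis, and over 71 arrays of the 3 tissues they correlated at r = 0.62.

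**Figure D4:**
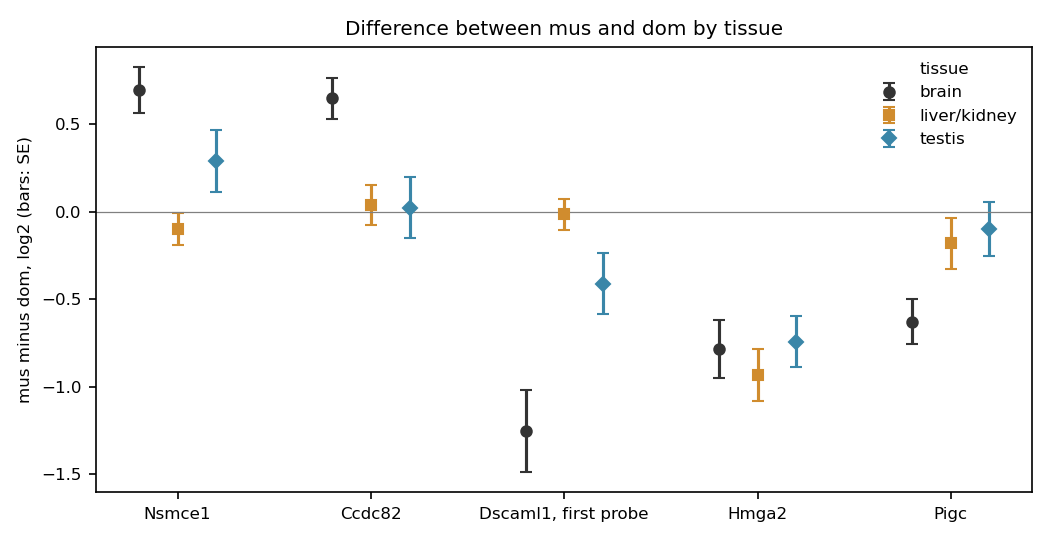
Difference of mus from dom in log2 units, with bars of 1 SE from the fit on all groups of a tissue, for the 5 selected probes in each tissue (6 arrays per group). Brain values chose the genes; of the rest, Hmga2 in liver/kidney was called, at -0.94, and Hmga2 in testis was of like size at -0.74.

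Apart from Hmga2 in ssp, no selected probe was called in cas, ssp or spretus against the mean of dom and mus in either tissue. The share of all probes called in those contrasts was 1.11% for cas, 0.484% for ssp and 7.1% for spretus in liver/kidney, and 0.0193%, 0 and 10.9% in testis, where limma gave 1588 probes an unadjusted p under 0.05 for ssp. The differences of Pigc in testis were 0.28 ± 0.17 for cas, 0.27 ± 0.13 for ssp and 0.21 ± 0.17 for spretus, with adjusted p of 0.496 or more in limma. Those of Ccdc82 in liver/kidney ran from -0.07 ± 0.13 in spretus to 0.22 ± 0.13 in cas.

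No relation between tissues over animals passed the test. Over the 24 animals that the titles number alike, each animal's deviation from its group mean was compared between tissues for the 5 selected probes, 15 relations in all. Of these, Hmga2 in liver/kidney against testis had the smallest p, at r = -0.34 (permutation p = 0.0618, rho = -0.39, permutation p = 0.0641), and the smallest adjusted p of the family was 0.568. Without spretus 03 and cas 01, the 2 animals farthest from the median, r was -0.49. The p-values of all tests measure the spread between these arrays, and nothing in the labels says more of how the animals were sampled.

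Within brain, the values of some of the genes were correlated across arrays. Pigc correlated at r = -0.79 with Nsmce1 and at -0.77 with Ccdc82 over the 24 arrays, and Nsmce1 at 0.69 with Ccdc82, as descriptions that the choice of genes partly fixed, since the arrays share 1 pool and the dom and mus groups differ by rule. Over the 12 arrays of cas, ssp and spretus, which the choice did not use, the same 3 values were -0.85, -0.49 and 0.67. Hmga2 and Nsmce1 gave -0.55 over 24 arrays and -0.41 over 12. Not every value repeated. The first Dscaml1 probe gave -0.63 with Ccdc82 and 0.56 with Pigc over 24 arrays, but -0.0015 and 0.21 over 12. With Nsmce1 it gave -0.30 and -0.29, and with Hmga2 0.35 and 0.54. Hmga2 gave -0.50 and -0.53 with Ccdc82, and 0.38 and 0.36 with Pigc.

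**Figure D5:**
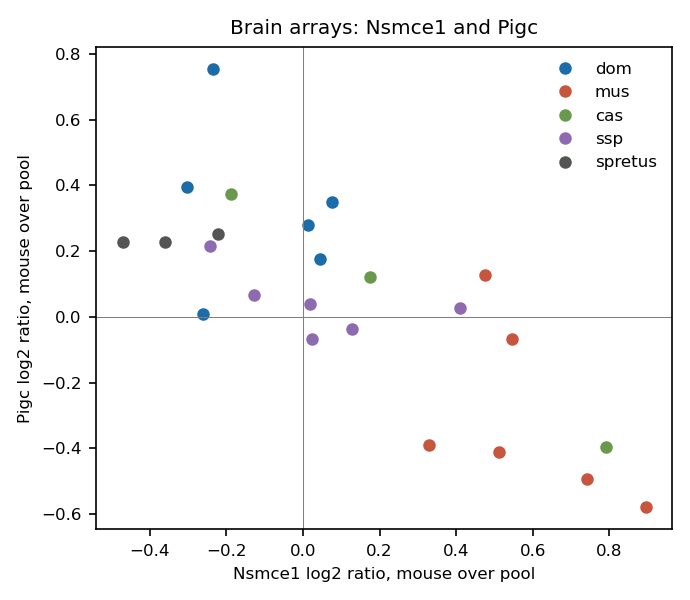
Pigc against Nsmce1 on the 24 brain arrays, each axis the log2 ratio of the mouse over the pool, with 1 point per array coloured by group. Most mus arrays lie low and to the right, with mus 05 at 0.13 for Pigc within the dom range, the dom and spretus arrays lie to the left, and cas 01 at 0.79 and -0.39 lies among the mus arrays.

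The probes most like each member over the brain arrays were found among 13352 probes with a single gene symbol, by Pearson's r. For Nsmce1 they were Slc22a15 (0.94), an organic cation transporter, Cdkn2b (0.93), an inhibitor of cyclin-dependent kinases, and Ccdc51 (0.90), and 111 probes passed 0.8. For Dscaml1 they were Cfap45 (0.89), a protein of cilia and flagella, Prelid3b (0.88), and Tuba4a (0.80), an alpha-tubulin, and 3 probes passed 0.8. For Pigc they were Furin (0.87), a proprotein convertase, Grik5 (0.86), a kainate receptor subunit, and Creld1 (0.85), with 17 past 0.8. For Ccdc82 they were Aqr (0.86), a splicing helicase, Arid4b (0.84) and Zfp329 (0.83), with 6 past 0.8. For Hmga2 they were Bora (0.82), an activator of Aurora kinase, Ndst4 (0.79) and Ttpal (0.79), with Bora alone past 0.8. These brain r took in the dom and mus arrays that chose the genes, so a probe that separated mus from dom was favoured. Of the probes named for brain, Slc22a15 alone was itself called between mus and dom (0.54 ± 0.12, limma, adjusted p = 0.0483), beside 0.223% of all probes. Over the 48 arrays of the other tissues the nearest probes were others: Gcsam (0.83), Mtus2 (0.82) and Cxxc1 (0.82) for Hmga2, Tex16 (0.86) for Nsmce1, Mbip (0.83) for Ccdc82, Rev1 (0.81) for Dscaml1 and Ly6g6c (0.70) for Pigc. Prelid3b appeared in both searches, beside Dscaml1 in brain and beside Ccdc82 in the other tissues (0.82). The 48 arrays were not centred by tissue, and each tissue has its own pool, so an offset between tissues enters these r. A single far array, such as dom 06 of testis for Dscaml1, enters them too. The part of either was not tested.

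Partners of these genes in their complexes and pathways were set beside them in brain, where 0.223% of all probes were called between mus and dom. Of 22 probes for 19 genes of SMC5/6, cohesin and condensin, Nsmce1 alone was called between mus and dom in brain. The list's median difference was 0.0063, against -0.0036 over all probes with a single gene symbol. The nearest others were Smc1a at -0.47 ± 0.15, Ncapg at 0.24 ± 0.08 and Smc2 at 0.35 ± 0.12, with adjusted p of 0.201 or more in limma. Of 21 probes for 20 genes of GPI anchor synthesis Pigc alone was called, with Pigo, an ethanolamine phosphate transferase, at -0.36 ± 0.12 and Dpm3 at -0.29 ± 0.10 (limma, adjusted p of 0.217 or more), and the list's median was -0.05. Of 27 probes for 21 genes of neuronal immunoglobulin-type adhesion and guidance receptors the first Dscaml1 probe alone was called, and 2 Ncam1 probes stood at -0.20 ± 0.08 and -0.24 ± 0.11 (limma, adjusted p of 0.409 or more). Of 11 probes for 11 high mobility group and Lin28 genes Hmga2 alone was called, with a list median of 0.04. In each list the member called in brain is the gene chosen for it, and lists of this size would hold few or no calls at the share over all probes, so nothing is read from these counts.

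Outside brain the lists gave a few calls besides Hmga2. A probe of Ncam1, a neural cell adhesion molecule, was 0.45 ± 0.11 higher in mus than in dom in liver/kidney (limma, adjusted p = 0.0494). In that contrast 0.591% of all probes were called. In spretus against the mean of dom and mus, Nsmce2, the SUMO ligase of SMC5/6, was higher in liver/kidney (0.80) and in testis (0.33), and Nsmce3 was lower in testis (-0.40). Of the GPI genes Pigq was higher (0.39) and Pigt and Pigx lower (-0.32 and -0.29) in spretus testis. Spretus called 7.1% of all probes in liver/kidney and 10.9% in testis.

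The genes next to each member on its chromosome were compared between mus and dom. For each member the nearest genes on both sides in RefSeq that the arrays held were taken, 6 per gene (5 tested for Pigc in brain and liver/kidney), in each of the 3 tissues. None was called, beside 0.223% of all probes in brain, 0.591% in liver/kidney and none of all probes in testis, so nothing about the neighbours is read from that count. Beside Hmga2, Helb, a DNA helicase, was -0.08 ± 0.15 in testis, -0.14 ± 0.12 in liver/kidney and -0.26 ± 0.16 in brain, and Llph was 0.16 ± 0.15, 0.06 ± 0.16 and 0.14 ± 0.14. Beside Nsmce1, Gtf3c1, a subunit of RNA polymerase III's factor TFIIIC, was -0.13 ± 0.06 in brain and 0.18 ± 0.09 in testis. All these had adjusted p of 0.550 or more in limma.

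Markers of the cell types that a brain sample can hold were compared between mus and dom, and none was called (0.223% of all probes were), among 7 probes of neurons, 12 of astrocytes, 6 of oligodendrocytes, 5 of microglia, 4 of choroid plexus, 7 of pituitary, 4 of blood and 6 of endothelium. The mean over oligodendrocyte probes ran from -0.08 to 0.01 in dom arrays and from -0.21 to -0.03 in mus arrays, and the mean over neuron probes from -0.02 to 0.03 and from -0.05 to 0.21. The mean over blood probes ran from -0.03 to 0.25 in dom and from -0.10 to 0.05 in mus, with a mean difference of -0.11, and 1 of the 4 had an unadjusted p under 0.05 in limma. Among genes of hepatocytes, Alb was -0.41 ± 0.08 in mus brain against dom (limma, adjusted p = 0.0264), and the part of these in the members' values was not tested. The ratios are relative to a pool of the same tissue, so they do not show whether a marker is present in a sample.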

How the data were processed

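The authors deposited 1 log ratio per spot and array, read here as log2 of the mouse over the pool of its tissue. No source used here states the scanner, background correction, normalisation, log base, direction or genome build. Each array held 46128 spots, of which 42825 to 44832 had a value, and the number of arrays limits the precision. Each probe's duplicate spots were averaged (median r between them 0.559 per array) and arrays were centred on their medians. Of 22089 probes, 15801 had 1 gene symbol, 294 several and 5994 none. Each tissue was fitted in limma 3.58.1 under R 4.3.3, with 1 coefficient per group and probes with 2 or more values in every group; brain cas, ssp and spretus were fitted alone. Tests were two-sided with Benjamini-Hochberg adjustment over all probes of a contrast and a threshold of 0.05, and the scripts were tested on simulated data. A gene's selected probe is that with the smallest p for mus against dom in brain. The probes named beside it are, per search, the 3 of highest r among named genes with 20 or more shared values. The members and the gene lists were chosen with earlier results of these data known. Pairs of groups, the difference between tissues and values without single arrays were added after the data were seen. Animal numbers shared between groups did not pair arrays (median r of deviations -0.009 in brain).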

Additional observations from a re-analysis of the deposited data

Results flagged for a closer look

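Single arrays stood apart from the other arrays of their group in 7 of 53 groups of 4 to 6 arrays, by the gap to the nearest array as a share of the group's range. About 1 in 20 would be the rate for independent groups of normal values. The groups share arrays, and some hold values that chose the genes, so 7 of 53 was not tested against that rate. Hmga2 read 0.88 on dom 01 of brain, where the other 5 dom arrays lay from -0.59 to -0.28. The first Dscaml1 probe read 1.70 on dom 06 of testis, against 0.04 to 0.41 on the others, and 0.28 on dom 05 of liver/kidney, against -0.02 to 0.07. The second Dscaml1 probe read 0.82 on mus 03 of testis, where its 2 spots were -0.02 and 1.67 and the other 3 mus arrays with a value read from -0.08 to 0.01. Ccdc82 read 0.33 on ssp 04 of brain, against -0.09 to 0.06, and -0.54 on ssp 04 of liver/kidney, against -0.13 to 0.05. Pigc read -0.55 on mus 02 of liver/kidney, against -0.19 to -0.04. None of these arrays was left out of the values reported, and the cause was not tested.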

How the results depend on the processing

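Over the alternatives, neither of the 2 differences called in tests outside brain (Hmga2 in liver/kidney, for mus against dom and for ssp) changed sign. Of 53 that were not called, 23 changed sign in at least 1 fit, and none was called with the opposite sign. No brain difference between mus and dom changed sign either, but those values chose the genes, so nothing is read from it. In brain the mus and dom differences ran, over fits that left out 1 array, from 0.63 to 0.74 for Nsmce1, 0.55 to 0.70 for Ccdc82, -1.49 to -1.06 for the first Dscaml1 probe, -0.86 to -0.57 for Hmga2 and -0.72 to -0.54 for Pigc. Each of these probes fell outside the threshold for calling in at least 1 of those fits. For mus against dom, Hmga2 in liver/kidney stayed called except with the replicate block, which used title numbers that did not pair arrays (-0.85, adjusted p = 0.477). Nsmce1 for spretus against cas in brain was called with array weights (-0.85, adjusted p = 0.0401). The counts of probes called moved more, and the cause was not tested. For brain mus against dom (46) the count was 322 with quantile normalisation, 6 and 11 with the first or second spots, 383 with array weights, 0 with the replicate block, 95 with the array set as a term, 0 within the first set, 29 with the spread of the compared groups and 3 to 174 leaving out 1 array. For ssp against cas it was 2 with the set term, 27 with the spread of all groups and 0 to 14 leaving out 1 array. For spretus against cas (8), in the order quantile, first spots, second spots, weights, block, within the second set, spread of all groups, it was 110, 2, 5, 114, 4, 0 and 242, and 4 to 18 leaving out 1 array. For spretus against ssp (89) it was, in that order with the set term after the block, 701, 24, 18, 2754, 5, 455, 5 and 1112, and 13 to 288. In liver/kidney, mus against dom (122) gave 207 with quantile normalisation, 319 with weights, 10 with the block, 250 with the spread of the compared groups and 66 to 159 leaving out 1 array. Against the mean of dom and mus, cas (230) gave 13 with the block, 0 with the set as a random block, 417 with the spread of the compared groups and 108 to 441; ssp (100) gave 198 with quantile normalisation, 31 and 25 with single spots, 385 with weights, 3 with the block, 161 with the random block, 343 with that spread and 26 to 220; spretus (1467) gave 820 with weights, 435 with the block, 40 with the random block and 1208 to 2010. In testis, mus against dom (0) gave 8 with quantile normalisation, 4 within the first set and 0 to 6; cas (4) gave 15 with quantile normalisation, 7 with second spots, 100 with weights, 0 with the block, 18 with the set term, 12 with the spread of the compared groups and 4 to 14; ssp (0) gave 14 with quantile normalisation, 1 with second spots, 2 with weights and 0 to 13; spretus (2257) gave 610 with quantile normalisation, 901 with the block, 601 with the set term and 1118 to 2689. Signal over background is unknown, since the deposited ratios carry no intensities.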

Other observations

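Ccdc82 was below the C57BL6 pool in testis whatever the group, on 23 of 24 arrays, with group means from -0.47 in ssp and spretus to -0.27 in cas, while in liver/kidney it was below the pool on 16 of 24 arrays and in brain on 11 of 24. Nsmce1 was below the pool on 19 of 24 testis arrays, against 9 of 24 in brain. Pigc was above the pool on 18 of 24 testis arrays and on 16 of 24 brain arrays. These counts set mice against 1 pool per tissue, and the spread of the pool was not measured.

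Of the neighbouring genes, 5 were called in spretus against the mean of dom and mus, where 7.1% of all probes were called in liver/kidney and 10.9% in testis. Xpo6, an exportin that carries actin out of the nucleus and a neighbour of Nsmce1, was at -0.55 in testis. Also in testis, Dnm3, a dynamin next to Pigc, was at 0.43, 4930471E19Rik, next to Hmga2, at 0.39, and Bace1, the beta-secretase next to Dscaml1, at 0.26. Pcsk7, a proprotein convertase and a neighbour of Dscaml1, was at 0.51 in liver/kidney. Of the adhesion and guidance list, Cntn4 (0.42) was higher and Nrcam (-0.42) and Dcc (-0.56) lower in spretus liver/kidney, and Ncam2 (0.34) was higher and Cntn1 (-0.62) lower in spretus testis. Unc5b, a netrin receptor, was at -0.87 in cas liver/kidney, where 1.11% of all probes were called. In these comparisons group and array set cannot be told apart in liver/kidney.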
